A study of Mus musculus with 2 samples.

Results

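A family of 10 tubulin genes, chosen by symbol, is described here across the cell classes of the mouse retina and between a control and a diabetic library. They are 7 beta tubulins (Tubb4b, Tubb4a, Tubb2a, Tubb2b, Tubb3, Tubb5 and Tubb6) and 3 alpha tubulins (Tuba1a, Tuba1b and Tuba4a), and all 10 were found among the 17087 genes of the count table. They were selected with a lower level of Tubb4b in the diabetic library already known from these data, so the differences between the libraries are given as a description and no test was made on them. The mice were male C57BL/6J animals (labelled C57BL/6). Those of the streptozotocin (STZ) group were given STZ, a toxin of pancreatic beta cells, at 55 mg/kg by the intraperitoneal route when 3 to 5 weeks old. Blood glucose over 300 mg/dL defined diabetes, high glucose lasted 25 weeks until the retinas were taken, and the control group is labelled untreated. Cells from 3 retinas were pooled in each group into 1 library for droplet sequencing of messenger RNA (3′) ends, so there was 1 library per group and no replicate, and every 95% interval below covers counting error only.

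Microtubules are hollow polymers of alpha and beta tubulin dimers. They carry motor traffic along axons and dendrites, form the axoneme of the photoreceptor connecting cilium, and shape the processes of glia. Mammals make each partner from several genes, the isotypes, whose proteins differ mainly in the tail that modifying enzymes and motors read. Tubb3 is the isotype used as a marker of neurons, Tubb4b is the beta tubulin of cilia and also of many other cells, Tubb5 is broadly made, Tubb2a, Tubb2b and Tubb4a are best known from brain, and Tuba1a is the main alpha tubulin of developing neurons. Tubulin messenger RNA is also controlled by its own product: when free dimers are abundant, the factor TTC5 recognises the first residues of a tubulin as it leaves the ribosome and the messenger is degraded.

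The first 12 coding bases are shown for 4 of the genes, because they encode the residues that this control reads. The start codon is in capitals, and the sequences are from the GENCODE transcripts on GRCm38. The 12 bases are the same in Tuba1a and Tuba1b, and the same in Tubb4b and Tubb3.
Tubb4b coding start: ATGagggagatc
Tubb5 coding start: ATGagggaaatc
Tubb2a coding start: ATGcgcgagatc
Tuba1b coding start: ATGcgtgagtgc

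Promoters are shown for Tubb4b, Tubb5 and Tuba1b, which lay below the control level in STZ in the 9 cell classes compared and for Tubb2a, which did not. Of these, Tubb5 in pigment epithelium-like cells turned above it in 9 of 11 alternative settings and Tuba1b in amacrine-like cells in 1 of 11. Each window holds 250 bases before and 50 after the RefSeq start site on GRCm38.p6, written 5′ to 3′ on the gene's strand. Capitals mark every match, on either strand, to the letters CCAAT of the CCAAT box, the letters GGGCGG of the GC box, the letters TATAAA of the TATA box, or the letters TGACGTCA of the cyclic AMP response element. No match overlapped another. Of the 10 genes, 8 had a promoter in the RefSeq table.
Tubb4b promoter, chr2:25224653-25224952, strand minus: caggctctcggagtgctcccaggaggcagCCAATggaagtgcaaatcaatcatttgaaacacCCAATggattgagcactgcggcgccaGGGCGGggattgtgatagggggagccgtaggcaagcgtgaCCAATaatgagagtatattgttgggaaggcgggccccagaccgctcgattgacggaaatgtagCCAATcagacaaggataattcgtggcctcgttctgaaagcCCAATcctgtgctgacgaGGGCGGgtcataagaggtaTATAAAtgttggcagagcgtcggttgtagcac
Tubb5 promoter, chr17:35838252-35838551, strand minus: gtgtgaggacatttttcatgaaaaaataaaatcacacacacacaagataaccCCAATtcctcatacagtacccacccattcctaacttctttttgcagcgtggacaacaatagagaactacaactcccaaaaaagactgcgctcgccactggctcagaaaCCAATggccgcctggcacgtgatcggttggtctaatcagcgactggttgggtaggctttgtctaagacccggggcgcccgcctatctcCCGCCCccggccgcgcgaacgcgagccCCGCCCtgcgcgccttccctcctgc
Tuba1b promoter, chr15:98934341-98934640, strand minus: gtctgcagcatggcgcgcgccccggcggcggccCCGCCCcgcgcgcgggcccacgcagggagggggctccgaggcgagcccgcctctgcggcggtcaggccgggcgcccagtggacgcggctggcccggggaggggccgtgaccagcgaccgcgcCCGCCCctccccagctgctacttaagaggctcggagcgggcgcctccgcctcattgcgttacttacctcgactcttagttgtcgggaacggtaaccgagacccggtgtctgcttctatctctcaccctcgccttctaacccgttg
Tubb2a promoter, chr13:34077959-34078258, strand minus: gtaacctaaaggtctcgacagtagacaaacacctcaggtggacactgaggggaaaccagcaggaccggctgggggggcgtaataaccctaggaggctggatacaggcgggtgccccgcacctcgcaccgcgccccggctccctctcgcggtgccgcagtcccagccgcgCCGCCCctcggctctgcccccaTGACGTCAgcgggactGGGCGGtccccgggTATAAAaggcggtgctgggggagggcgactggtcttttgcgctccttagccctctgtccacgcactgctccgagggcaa

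The window of Tubb4b held 5 CCAAT matches, at -221, -188, -122, -59 and -19 from the start site, with 2 of GGGCGG. Its 1 match of TATAAA lay at 18, after the start site. Tubb5 held 2 of CCAAT and 2 of GGGCGG, Tuba1a 1 of each, and Tuba1b 2 of GGGCGG. Tubb2a held no CCAAT, but 2 of GGGCGG, 1 of TATAAA at -29 and 1 of TGACGTCA at -59. Among all 32851 promoters of that length, 37.4% held CCAAT, 35.7% GGGCGG, 13.6% TATAAA and 1.79% TGACGTCA. Tubb4a held none of these motifs and Tuba4a no CCAAT. Tubb3 held CCAAT at -77 and lay below the control level in 2 of 3 classes, with intervals including no change in 2. CCAAT was therefore found in some genes that were lower (Tubb4b, Tubb5, Tuba1a) and not in others (Tuba1b, Tubb4a), and a match is no evidence that a factor binds.

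In the GENCODE annotation on the same build, each of the 10 genes has 4 exons in its principal transcript. Tubb4b lies at chr2:25222160-25224702 on the minus strand. Tuba1a (chr15:98949837-98953703) and Tuba1b (chr15:98931425-98934565) lie close together on the minus strand of chromosome 15, and Tubb2a (chr13:34074274-34078007) and Tubb2b (chr13:34126748-34130466) are likewise neighbours. Because reads came from the 3′ ends, the last 400 bases of each transcript were compared with all other transcripts in words of 60 bases. Tuba1b shared 51.9% of these words and Tuba1a 42.2%, with each other, with Tuba1c and with pseudogenes. Tubb2a shared 29.9%, with Tubb2b and a pseudogene, and Tubb4b 24.3%, with 2 pseudogenes of its own and the gene model Gm16165. The shared words lay upstream, and the last 158 bases of Tubb4b, 164 of Tuba1b, 197 of Tuba1a and 210 of Tubb2a held none. The other 6 genes shared none, and how the authors' counting treated shared reads is not given in the sources used here.

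Of 19562 cells, 5288 control and 8232 STZ cells remained after the filters. Clusters were named from marker genes, with the ending -like, and 9 classes had at least 50 cells in both libraries, from 53 and 186 pigment epithelium-like to 1258 and 1596 cone bipolar-like cells. No cluster of ganglion or horizontal cells was found. At least 2 of the ganglion markers Rbpms, Slc17a6 and Pou4f1 were seen together in 0 control cells and 1 STZ cell, which held 0 Tubb3 UMIs. This count cannot show ganglion cells with only 1 of these markers, or free ganglion RNA. The STZ library was shallower, with a median of 2536 UMIs (counted molecules) per kept cell against 4456 in control, and the median mitochondrial share was higher in STZ in 8 of the 9 classes. The depth gap was widest in endothelial-like cells, at a median of 3170 UMIs in control and 953 in STZ. In Müller glia-like cells the medians were 6044 and 5924 UMIs, with mitochondrial shares of 9.50% and 10.0%. The barcodes of 21 cells occurred in both libraries.

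Levels are given as CPM, the share of a gene in all UMIs of its class and library, scaled so that all genes of a class add up to the same total in both libraries. A UMI stands for 1 molecule tagged at its end, so levels of different genes were compared without scaling by length. The tubulin profile varied between classes in the control library. Rod-like and cone-like cells were close in their main beta tubulin shares (Tubb5 73.3% and 71.3%, Tubb4b 21.7% and 21.8%). The 10 genes together stood highest in Müller glia-like cells, at 2486 CPM, followed by cone bipolar-like and rod bipolar-like cells at 1985 and 1975 CPM, and lowest in rod-like and cone-like cells, at 1207 and 1191 CPM.

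Tubb4b stood higher in Müller glia-like, pigment epithelium-like and endothelial-like cells than in the neuron classes. Its control level was 548.9 CPM in Müller glia-like, 426 CPM in pigment epithelium-like and 324 CPM in endothelial-like cells, 189 CPM in pericyte or smooth muscle-like cells, and between 88.4 and 119 CPM in the 5 neuron classes. The intervals of Müller glia-like and pigment epithelium-like cells overlapped (531 to 567 and 306 to 578 CPM), and so did those of pericyte or smooth muscle-like and amacrine-like cells (147 to 239 and 76.1 to 177 CPM) and of the neighbours in order from there to cone bipolar-like cells. The genes whose levels followed Tubb4b most closely over the 18 values, 9 classes in 2 libraries, were Bmp2k, Aamdc and Apip, with Pearson r on log2(CPM + 10) of 0.904, 0.899 and 0.898. Such correlations share libraries and depth among their points and are given without a test.

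Tubb5 varied less from class to class than Tubb4b. It ranged in control from 145 CPM in pigment epithelium-like to 438 CPM in rod bipolar-like cells, and was at 401 CPM in rod-like and 372 CPM in cone-like cells, where it supplied most of the beta tubulin UMIs. The order ran from rod bipolar-like through rod-like and endothelial-like to cone-like cells with overlapping intervals between neighbours, and the next, Müller glia-like cells at 305 CPM, had an interval below theirs.

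Tubb2a and Tubb4a were both highest in amacrine-like cells and low in photoreceptors. Tubb2a stood at 485 CPM in amacrine-like and 287 CPM in cone bipolar-like cells of the control library, then at 154 CPM in endothelial-like, 129.8 CPM in Müller glia-like, 83.1 CPM in pigment epithelium-like and 79.1 CPM in rod bipolar-like cells, and at 7.44 CPM in rod-like and 4.78 CPM in cone-like cells. Tubb4a stood at 158 CPM in amacrine-like, 132 CPM in rod bipolar-like and 101 CPM in cone bipolar-like cells, and at 2.08 CPM in Müller glia-like and 1.67 CPM in cone-like cells. The order of Tubb4a in the first pair was not resolved, since the amacrine-like interval was 108 to 224 CPM. Its closest followers were Cend1 and 2900011O08Rik, with r of 0.944 and 0.942.

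Tubb3, the neuronal marker, split the neurons. It was at 69.3 CPM in amacrine-like, 36.6 CPM in cone bipolar-like and 28.9 CPM in cone-like cells in control, and at 0.487 CPM in rod bipolar-like cells, where 2 UMIs were counted in 909 cells. Müller glia-like cells held 0.743 CPM, from 5 UMIs. Among the 7 cone bipolar-like clusters it stood high in 3, led by Htr3a (80.7 CPM in control, 76.3 CPM in STZ), by Slitrk6 and Grik1 (83.5 and 84.8 CPM) and by Tmem200a (75.9 and 51.0 CPM), whereas the cluster led by Cck held 0.810 and 8.08 CPM. Its closest follower was Esrrg, an orphan nuclear receptor gene, at r = 0.977, then Akain1 at 0.950 and Gjd2, which encodes connexin 36, at 0.926.

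Tubb2b was measured only in Müller glia-like cells, at 53.4 CPM in control against 41.6 CPM in STZ. Elsewhere it was at 9.90 CPM or less in both libraries. Paqr6, Entpd2 and Bves followed it with r of 0.972, 0.967 and 0.961. Tubb6 had too few UMIs to compare in any class, with 4 in control and 0 in STZ in pigment epithelium-like cells and at most 5 elsewhere.

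Tuba1a was the leading alpha tubulin of the inner retina and Tuba1b that of pigment epithelium-like cells. In control Tuba1a reached 957 CPM in rod bipolar-like, 898 CPM in Müller glia-like and 824 CPM in cone bipolar-like cells, with 93.5 CPM in pigment epithelium-like cells. Tuba1b was highest there, at 686 CPM, and lowest in amacrine-like cells, at 139 CPM. Neither end of this order was resolved. The pigment epithelium-like interval (530 to 872 CPM) overlapped that of Müller glia-like cells (509 to 543 CPM). The amacrine-like interval (92.1 to 200 CPM) overlapped that of rod bipolar-like cells (191 to 219 CPM). Tuba4a was the rarest of the alpha genes in 8 of the 9 control classes and was highest in pigment epithelium-like cells, at 145 CPM. That value came from 14 UMIs, and its interval (79.5 to 244 CPM) overlapped that of rod bipolar-like cells (66.9 to 83.9 CPM). H2afz and Dpf2 followed Tuba1a most closely, with r of 0.917 and 0.915, and Pgpep1 and Mcee followed Tuba1b, with r of 0.876 and 0.862.

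**Figure D1:**
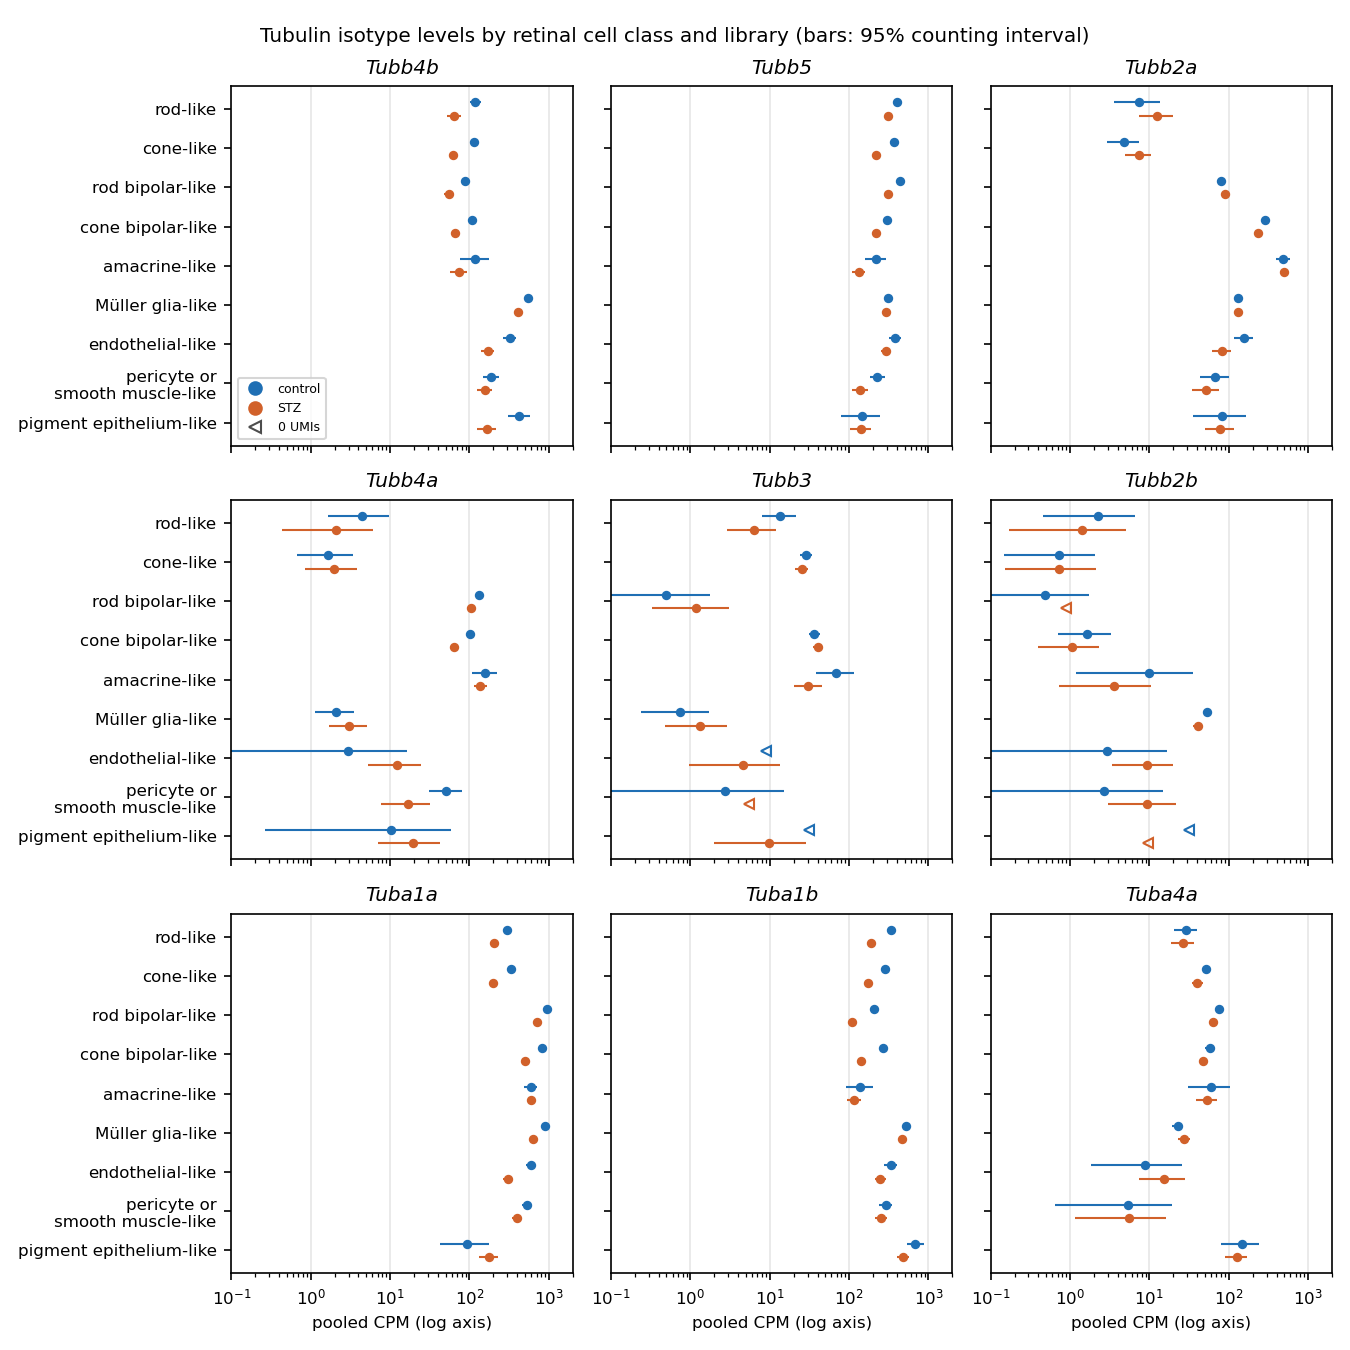
Pooled CPM of 9 tubulin genes (log axis) in each cell class, with control in blue and STZ in orange. Points are 1 library each, bars are 95% Poisson intervals of the count clipped at the left edge, and open triangles mark the level that 3 UMIs would have where none was counted. For Tubb4b, Tubb5 and Tuba1b the orange point lies to the left of the blue in all 9 classes, for Tubb5 in pigment epithelium-like cells by a log2 ratio of only -0.03, and Tubb2a spans from 4.78 CPM in cone-like to 485 CPM in amacrine-like control cells.

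Between the libraries, most tubulin genes were lower in STZ. A gene was compared in a class where it had at least 10 CPM and 20 UMIs over both libraries, which left 59 of 90 pairs of gene and class. Of these, 52 lay below the control level and 7 above it, and the interval of the ratio excluded no change in 37 of the lower and 0 of the higher pairs. Counting a difference as called at 1.5-fold, 21 pairs (35.6%) were lower and 2 (3.39%) higher, against 8.42% lower and 9.39% higher among all 64671 gene and class pairs measured. The genes were chosen with this comparison known, so nothing is read from that gap. The 10 genes summed were lower in each of the 9 classes, by 1.14-fold in amacrine-like cells (1851 CPM in control, 1628 CPM in STZ) to 1.63-fold in cone-like cells (1191 and 730 CPM).

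**Figure D2:**
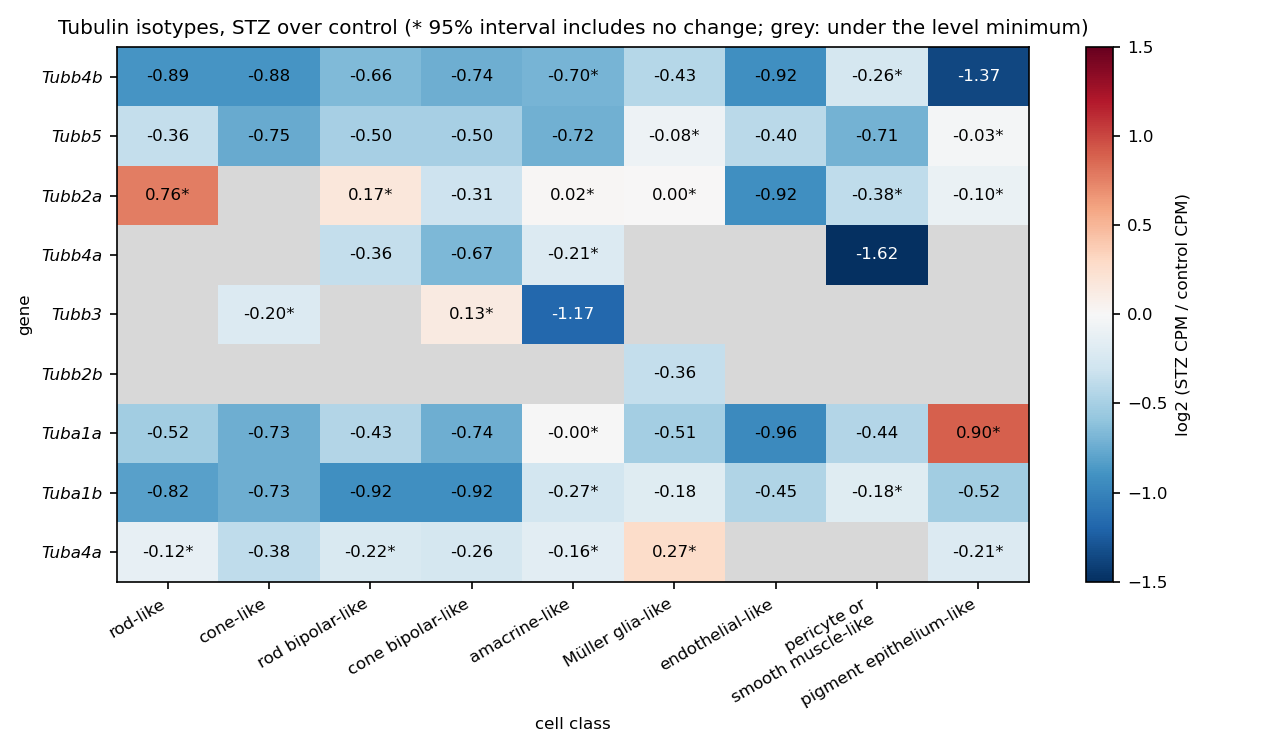
Log2 ratio of STZ over control CPM for each gene (rows) and class (columns), blue for lower and red for higher in STZ. Grey cells were under the minimum for comparison, and an asterisk marks a 95% interval that includes no change. Both ratios above 0.5, for Tubb2a in rod-like and Tuba1a in pigment epithelium-like cells, carry the asterisk.

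Tubb4b was lower in all 9 classes and called in 7. Rod-like cells had 118 CPM in control and 63.9 CPM in STZ, a 1.85-fold difference (95% interval 1.42 to 2.42). In cone-like cells it was at 114 and 61.9 CPM, 1.84-fold lower in STZ (1.58 to 2.15). The bipolar classes followed, at 88.4 and 55.9 CPM in rod bipolar-like and 108 and 65.1 CPM in cone bipolar-like cells. These neurons, which had similar levels in control, thus held similar and lower levels in STZ.

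Outside the neurons the size of the Tubb4b difference was less even. Müller glia-like cells, with the most Tubb4b, went from 548.9 CPM in control to 407 CPM in STZ, 1.35-fold lower (1.27 to 1.43) and not called, at nearly equal depth. Of their 2 clusters, that led by Syt10 was called (1.51-fold lower) and that led by Cyr61 was not (1.29-fold). Left out of the class were 2 unnamed clusters, with median UMIs of 1053 to 1248, in which 7 and 6 of 9 Müller glia markers led. Their Tubb4b was at 445 and 253 CPM and at 186 and 117 CPM, control before STZ. Both were called lower, the second with an interval that included no change. Pigment epithelium-like cells had 426 and 165 CPM, 2.58-fold lower (1.67 to 3.98), from 41 and 51 UMIs, and 56.1% of the 41 came from 5 cells. Their rod genes were at 4166 and 4850 CPM and their median mitochondrial share was 4.75% and 10.0%. The log2 ratio of -1.37 was -1.40 with free RNA taken off, and the part of the mitochondrial share was not tested. Endothelial-like cells had 324 and 171 CPM, 1.90-fold lower (1.44 to 2.49). In those cells the rod genes used to measure stray rod RNA were at 1986 CPM in control against 4997 CPM in STZ, beside the depth gap given above, and the log2 ratio of -0.92 was -0.90 among cells of 1000 to 5000 UMIs and -0.75 with free RNA taken off. Amacrine-like (119 and 73.3 CPM) and pericyte or smooth muscle-like cells (189 and 157 CPM) were lower as well, with intervals that included no change. Of the 24 Tubb4b UMIs of control amacrine-like cells, 41.7% came from 5 cells.

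Tubb5 was below the control level in all 9 classes, by less than Tubb4b in 7 of them and by more in amacrine-like and pericyte or smooth muscle-like cells. It was called in cone-like (372 and 221 CPM, control before STZ), amacrine-like (218 and 132 CPM) and pericyte or smooth muscle-like cells (227 and 139 CPM). Müller glia-like cells had 305 and 289 CPM and pigment epithelium-like cells 145 and 142 CPM, both with intervals that included no change. In pigment epithelium-like cells the log2 ratio of -0.03 was above 0 in 9 of the 11 alternatives, up to 2.13 with free RNA taken off, so no direction is read from it.

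Tubb2a differed from these. It was at 485 and 491 CPM in amacrine-like cells, 129.8 and 130.0 CPM in Müller glia-like cells and 79.1 and 88.9 CPM in rod bipolar-like cells, and 4 of its 8 ratios lay above 0. Cone bipolar-like cells had 287 and 232 CPM, 1.24-fold lower (1.15 to 1.34). Its call higher in rod-like cells rested on 10 and 18 UMIs (7.44 and 12.6 CPM) with an interval of 0.744 to 4.12. Its call lower in endothelial-like cells, at 154 and 81.4 CPM, turned to a log2 ratio of 0.27 when each cell was thinned to 500 UMIs.

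Tubb4a was lower in each of the 4 classes where it was compared. Rod bipolar-like cells had 132 CPM in control against 103 CPM in STZ, cone bipolar-like cells 101 and 63.2 CPM (called) and amacrine-like cells 158 and 137 CPM. In pericyte or smooth muscle-like cells the call rested on 19 and 9 UMIs. Tubb3 was at 28.9 and 25.2 CPM in cone-like and 36.6 and 40.1 CPM in cone bipolar-like cells, both with intervals including no change, and its call in amacrine-like cells came from 14 and 26 UMIs (69.3 and 30.7 CPM).

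The 2 common alpha genes were lower almost throughout. Tuba1b, control before STZ, was at 335 and 190 CPM in rod-like, 287 and 172 CPM in cone-like, 204 and 108 CPM in rod bipolar-like and 266 and 140 CPM in cone bipolar-like cells, which are its 4 calls, 1.66-fold to 1.90-fold lower. Müller glia-like cells had 526 and 463 CPM. Tuba1a was at 329 and 199 CPM in cone-like, 824 and 494 CPM in cone bipolar-like and 591 and 304 CPM in endothelial-like cells, its 3 calls lower. In rod bipolar-like cells it was at 957 and 708 CPM and in Müller glia-like cells at 898 and 629 CPM, neither called, and in amacrine-like cells at 594 and 592 CPM. It was higher only in pigment epithelium-like cells, at 93.5 and 174 CPM from 9 and 54 UMIs, with an interval of 0.914 to 4.30.

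Since Tuba1a and Tuba1b share words near their 3′ ends, the sum of the 3 listed alpha genes was taken too. Tuba1c, which shares words with both, is not in this sum. It was lower in all 9 classes, from 792 CPM in control and 760 CPM in STZ in amacrine-like cells, with an interval including no change, to 1147 and 682 CPM in cone bipolar-like cells, 1.68-fold lower (1.61 to 1.75). Tuba4a alone was at 75.0 and 64.2 CPM in rod bipolar-like and 22.7 and 27.5 CPM in Müller glia-like cells and was called in none of its 7 classes. Within cone bipolar-like cells it varied more: in the cluster led by Tmem200a its level was 67.0 and 13.2 CPM, 5.06-fold lower (1.94 to 14.7) from 15 and 7 UMIs, and in the cluster led by Tenm1 it was 20.3 and 34.0 CPM, from 9 and 15 UMIs with an interval of 0.687 to 4.34 that includes no change. Both clusters were named here after their values had been seen.

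Counted by class, the members called lower were 2 of 6 measured in rod-like cells, where 9.16% of all measured genes were called lower and 7.4% higher, and 1 was called higher. In cone-like cells 4 of 6 were lower (background 3.05% lower, 5.02% higher). In rod bipolar-like cells 2 of 7 were lower (5.85% and 4.9%), and in cone bipolar-like cells 4 of 8 (3.92% and 3.71%). Amacrine-like cells had 3 of 8 lower (13.7% and 16%) and Müller glia-like cells 0 of 7 (2.89% and 4.87%), although 5 of those 7 lay below 0. Endothelial-like cells had 3 of 5 lower (17.4% and 19.4%), pericyte or smooth muscle-like cells 2 of 6 (11% and 12.8%), and pigment epithelium-like cells 1 of 6 lower and 1 higher (18.7% and 22%). The members' median log2 ratio ran from -0.92 in endothelial-like and -0.73 in cone-like cells to -0.15 in pigment epithelium-like cells, while the median of all genes lay between -0.04 and 0.03 in every class.

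Because Tubb4b was lower by more than Tubb2a, the isotype makeup of beta tubulin differed as well. The Tubb4b share of beta tubulin UMIs in Müller glia-like cells was 52.8% in control (Clopper-Pearson interval 51.6 to 54.0) and 46.7% in STZ (45.1 to 48.2). In pigment epithelium-like cells it was 60.3% (47.7 to 72.0) and 39.8% (31.3 to 48.9), and in rod-like cells 21.7% (18.7 to 24.8) and 16.0% (13.1 to 19.3), with overlapping intervals in both classes. It was smaller in STZ in 8 of 9 classes, with a median difference of -2.77 percentage points, and larger in pericyte or smooth muscle-like cells (34.5% and 41.1%). The control and STZ intervals were apart only in Müller glia-like and cone bipolar-like cells (11.9 to 14.0 and 9.56 to 11.6 in the latter), and overlapped in the other classes. The Tubb2a share was larger in STZ in 8 of 9 classes, at 45.8% and 56.5% in amacrine-like and 10.7% and 15.9% in rod bipolar-like cells, and smaller in endothelial-like cells. Shares within a class do not depend on its total UMIs.

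**Figure D3:**
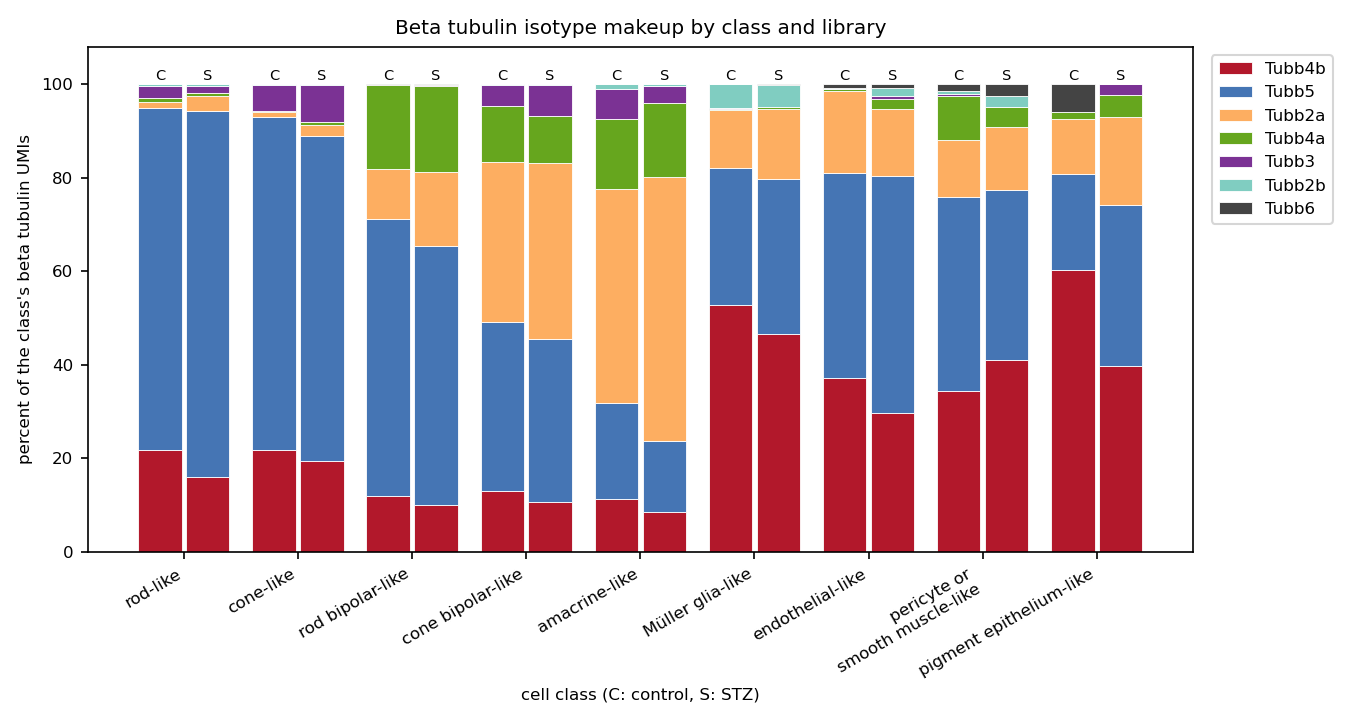
Share of each beta tubulin gene in all beta tubulin UMIs of a class, as stacked bars for control (C) and STZ (S). Tubb5 (blue) makes up 73.3% of the control bar in rod-like cells, Tubb2a (light orange) 45.8% in amacrine-like cells and Tubb4b (red) 52.8% in Müller glia-like cells, and the red part is shorter in STZ in 8 of 9 classes.

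The direction was also examined within the single clusters, 18 of which had at least 50 cells in both libraries. Tubb4b, Tubb5, Tuba1b and the sum of the 10 genes were below the control level in 18 of 18, and Tuba1a in 17 of 18. The log2 ratio of Tubb5 in the pigment epithelium-like cluster was -0.03, from which no direction is read. Each of Tuba1b, Tubb4b and Tuba1a was below the control level in 7 of 7 cone bipolar-like clusters. Among all measured genes, 45.6% to 54.2% lay below it in a class, a share over genes and not over clusters. The 10 genes were chosen with this comparison known, so nothing is read from these counts. The Müller glia-like cluster led by Cyr61, Fosb and Jun, genes of the immediate response to stimulation, had more Tubb4b (613 CPM in control, 475 CPM in STZ) than the cluster led by Syt10 and Abca8a (472 and 313 CPM), and both were lower in STZ. Tubb2b was at 67.6 and 43.7 CPM in the first and 36.3 and 38.6 CPM in the second. The cone-like, endothelial-like, pericyte or smooth muscle-like and pigment epithelium-like classes each held a single cluster, so the cluster counts partly repeat the class values. The clusters come from the same pair of libraries and are not replicates.

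**Figure D4:**
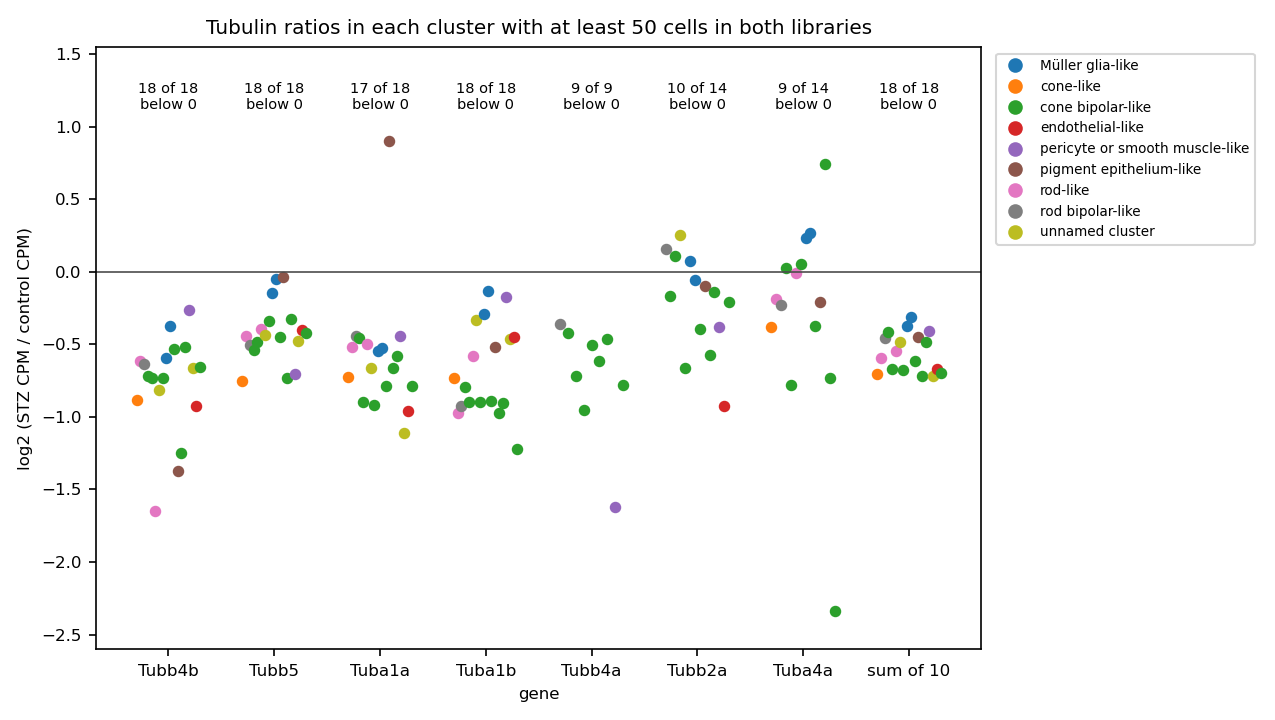
Log2 ratio of STZ over control CPM for 7 tubulin genes and the sum of all 10, with 1 point for each cluster of at least 50 cells in both libraries, coloured by class. The sum is below 0 in 18 of 18 clusters, while Tubb2a is below 0 in 10 of 14.

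Other genes of the microtubule system were counted by list over the 9 classes. Of 22 listed genes for the folding of tubulin, such as chaperonin subunits and tubulin cofactors, 8 of 187 measured pairs (4.28%) were lower and 8 higher, and the class medians ran from -0.20 to 0.05. Microtubule-associated proteins had 15 of 208 pairs lower and 21 higher, motors 19 of 213 lower and 12 higher, and intraflagellar transport genes 15 of 110 lower (13.6%) and 4 higher. Actin and intermediate filament genes had 5 of 149 lower and 9 higher, with class medians from -0.16 to 0.25. Against all genes, where 8.42% of pairs were lower, these shares lie on both sides.

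Among 7 other tubulin genes in the table, 0 of 17 measured pairs were lower and 3 (17.6%) higher, against 8.42% and 9.39% among all pairs. Tube1, named after its values had been seen, was called higher in rod-like (1.85-fold, interval 1.14 to 3.06) and cone-like cells (2.08-fold, 1.61 to 2.70). Tubg1, the gamma tubulin of microtubule nucleation, had a median log2 ratio of 0.01 over 8 classes. Its call higher in pericyte or smooth muscle-like cells came from 5 and 16 UMIs, with an interval that included no change. Of the genes for tubulin messenger decay and tubulin modification, 10 of 99 pairs were lower and 9 higher. Ttc5, which encodes the factor that recognises nascent tubulin, is named for that role, after its values had been seen. It was at 85.1 and 74.9 CPM in cone-like cells, 46.6 and 52.3 CPM in cone bipolar-like cells and 44.7 and 35.0 CPM in Müller glia-like cells, and was called, lower, in 1 of 8 classes. That call, in endothelial-like cells, came from 23 and 27 UMIs, with an interval that included no change.

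In these lists, 1 gene was called higher and 2 were called lower in at least 4 classes. Svbp, the partner of the vasohibins that remove the last tyrosine of alpha tubulin, was higher in 4 of 9 classes, among them rod bipolar-like cells (11.2 and 30.9 CPM, 2.76-fold, interval 1.93 to 4.00). Kif3a, a motor subunit of kinesin-2 that carries ciliary cargo, was lower in 4 of 7, among them rod-like (60.3 and 24.6 CPM) and cone bipolar-like cells (68.1 and 41.5 CPM). For Svbp and Kif3a, the interval included no change in 1 of 4 calls. Dynll1, a light chain shared by dynein and other complexes, was lower in 5 of 9, among them cone bipolar-like (359 and 172 CPM, 2.08-fold, interval 1.92 to 2.26) and Müller glia-like cells (181 and 113 CPM), and was called higher in pigment epithelium-like cells, from 8 and 50 UMIs with an interval that included no change.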

How the data were processed

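The values used are UMI counts per gene and cell from 10x Chromium 3′ libraries, which the authors deposited as 1 table of 17087 genes and 19562 cells. Per the submitters' processing notes Cell Ranger 3.0.1 and Seurat 3.0 were used, with build mm10. Settings are not given in the sources used here. Cell names end in the library's name, which gave the group. The deposited totals were 27279124 UMIs in control and 33178623 in STZ.

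The cells kept had 200 or more genes and no more than 20% mitochondrial UMIs, a limit that 25.7% of control and 28.5% of STZ cells exceeded. Scrublet removed 37 control cells by its automatic threshold, and in STZ, where that called 0%, the 628 highest scores, so the rule differed. Clustering in scanpy 1.11.5 (2000 variable genes, of the 10 members Tubb6 alone, 30 components, resolution 1.0) gave 26 clusters, named where at least 3 marker genes led. A cluster stayed unnamed if its top genes held more markers of another class. So did a shallow cluster whose top genes held no marker of its own class. By these rules 2 clusters in which 7 and 6 of 9 Müller glia markers led stayed unnamed. Ratios use pooled CPM. For a count of 0, 3 UMIs were used and the ratio is a bound. No ratio is given where the other library's CPM is below the level of those 3 UMIs. Intervals (95%) are exact Poisson, Clopper-Pearson and conditional binomial. They assume independent UMIs, so they are narrow where few cells hold most of a gene. The ratios and intervals were run on simulated counts with known folds, as a check of the calculation. The simulation drew independent UMIs, which the intervals assume, and only for genes well above the minimum for comparison. It therefore does not cover genes near that minimum or genes whose UMIs are held by few cells. Alternatives included edgeR 4.0.16 TMM factors. The members, the gene lists, the markers and the alternatives were chosen with earlier results of these data known. Other genes are named where a listed gene was called in the same direction in at least 4 classes, or as the closest 3 in pattern outside the family (11919 genes compared); exceptions are marked, and 1 gene that this selects is not reported here.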

Additional observations from a re-analysis of the deposited data

Results flagged for a closer look

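The ratios of 2 genes pointed in opposite directions in different classes at 1.5-fold or more, with 1 library per group, so the difference between the classes was not tested. Tubb2a had a log2 ratio of STZ over control of 0.76 in rod-like cells, from 10 and 18 UMIs, and of -0.92 in endothelial-like cells, from 52 and 53 UMIs. Tuba1a had 0.90 in pigment epithelium-like cells, from 9 and 54 UMIs, and -0.73 in cone-like, -0.74 in cone bipolar-like and -0.96 in endothelial-like cells. The intervals of both higher values include no change.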

How the results depend on the processing

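No paired analysis was possible because each group has 1 library, and for the same reason no library could be left out. The number of gene and class pairs called lower (21) stayed between 16, with free RNA taken off, and 27, with no minimum of CPM and UMIs, over all 14 alternatives, 1 of them (leaving out barcodes found in both libraries) chosen after seeing the data. The number called higher (2) was 1 with no filter on cells, at resolution 0.5 and with free RNA taken off, 0 with the stricter filter (at least 500 genes and at most 10% mitochondrial UMIs) and with cells of 1000 to 5000 UMIs, and 10 with no minimum. Of the called pairs with a value, 13 of 18 stayed called with the stricter filter and 18 of 22 in cells thinned to 500 UMIs. With the stricter filter 14 ratios lay outside the interval of their main value. The median over classes of the log2 ratio of the summed genes was -0.46. It was -0.59 with the stricter filter, -0.56 with cells thinned to 500 UMIs and -0.63 with 1000 to 5000 UMIs. The median of Tubb4b (-0.74) was -0.48 with the stricter filter. The stricter filter and the depth window leave 7 of the 9 classes, and the cause of these shifts was not tested. Of the 59 ratios, 45 kept their sign under every alternative with a value, and 14 did not, of which 1 was called: Tubb2a in endothelial-like cells, at 0.27 in thinned cells. Tubb5 in pigment epithelium-like cells turned in 9 of 11 settings (-0.36 to 2.13), Tuba1a in amacrine-like cells in 6 of 11 (up to 0.38), Tuba1b there in 1 (0.10), and Tubb3 in cone-like and cone bipolar-like cells in 1 each (0.46 and -0.46); the rest were Tubb2a in 4 further classes, Tuba4a in 3 and Tubb4a in amacrine-like cells. Tubb4b, Tubb5 and Tuba1b kept their direction in rod-like, cone-like, bipolar-like and Müller glia-like cells under every alternative that gave a value. Free RNA could not be taken off in cone-like cells, which express the rod genes used to measure it. Too few UMIs were counted to compare Tubb6 in any class.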

Other observations

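Microglia-like cells, 43 in control and 113 in STZ, were too few for the comparison. Their Tubb4b was at 90.6 CPM in control (45.2 to 162) and 148 CPM in STZ (106 to 201), from 11 and 41 UMIs, and their Tuba1b at 313 and 210 CPM. Tubb5 was at 222 and 238 CPM and Tuba1a at 140 and 199 CPM, with overlapping intervals in both. Tubb2a was at 124 and 108 CPM. Of the Tubb4b UMIs, 90.9% in control and 65.9% in STZ came from 5 cells. There were 0 UMIs of Tubb3 and Tubb4a in control and 1 of each in STZ.

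An unnamed cluster of shallow cells held 11 control and 1578 STZ cells, with a median of 680.5 UMIs in STZ. Its STZ cells had 154 CPM of Tubb4b, 107 CPM of Tubb2a and 44.0 CPM of Tuba4a. The control cells were too few for a ratio.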
